A study of Mus musculus with 4 samples.

Results

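The wild-type megakaryocytes of the PF4-Cre and ROSA-Cre models were described here from 2 of the 4 libraries of the series, 1 library a model. Megakaryocytes are the large marrow cells that release platelets. The members were the libraries titled Gfi1b wild-type, picked by label with earlier results of these data known. Genes on chromosomes X and Y were left out. The series asked what loss of Gfi1b, a zinc finger repressor gene, does to these cells, and the wild-type pair is its baseline. All mice were C57Bl/6 and 8 weeks old. The first group was PF4-Cre, Gfi1b wild-type, and the second ROSA-Cre, Gfi1b wild-type. The knockout group of each Cre model is used below to see whether a difference between the models came back in separate libraries. Both knockout libraries also enter the scaling of counts and a test, each computed over all 4 libraries. In every group, cells from the tibia, femur and humerus had been sorted for cKit, CD41 and CD61 after lineage-positive cells were gated out. The labels list a Cre status for wild-type and knockout animals alike. They do not mention floxed alleles, an inducer for the ROSA-Cre model, the number of mice behind a library, or the day it was made.

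By way of background, PF4-Cre uses the promoter of the platelet factor 4 gene, which is active in the megakaryocyte lineage, while Cre from the Rosa26 locus can act in nearly all cell types. As megakaryocytes mature they raise the fibrinogen receptor (CD41 and CD61), the von Willebrand factor receptor and the cargo of alpha and dense granules, and they copy their genome without dividing. cKit is the stem cell factor receptor of progenitors and mast cells, so a gate that keeps it favours immature megakaryocytes and can also keep other cKit-positive cells.

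The 2 libraries differed in depth. Genes outside X and Y held 59465152 counts in PF4-Cre wild-type and 24153069 in ROSA-Cre wild-type, 2.46 times fewer, so that 3 counts, the limit that a count of 0 allows, stood for 0.0504 and 0.124 CPM. CPM gives a gene's counts in a library scaled to a million-count total, and values below are scaled to library sizes normalised by trimmed mean of M values (TMM). With 1 library a model the wild-type difference has no replicate and no test. Intervals are 95% Clopper-Pearson intervals of a ratio of counts and cover counting error only. Model, mice, depth and preparation differ together in the pair and cannot be told apart. Gfi1b stood at 177 CPM in PF4-Cre wild-type and 243 in ROSA-Cre wild-type, and at 1467 and 2517 CPM in the libraries labelled knockout, so the gene's level goes against that label. The deleted part of the gene is not given in the sources used here, and a count over the whole gene does not check it. The 2 libraries labelled knockout are called the knockout pair below, by label only.

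The sort gate and the cell label were checked against markers. All 8 megakaryocyte markers were detected in both libraries, with a summed 7127 CPM in PF4-Cre and 9680 in ROSA-Cre. Pf4, the platelet chemokine, had 118524 and 49603 counts, or 2069 and 2054 CPM. The 2 levels were nearly equal (ratio of PF4-Cre to ROSA-Cre 1.01, interval 0.997 to 1.02). Itga2b, which encodes CD41, reached 2484 and 3638 CPM and ranked 10 and 9 among all genes kept. Itgb3, which encodes CD61, stood at 677 and 829 CPM, and Gp9, a subunit of the von Willebrand factor receptor, at 60.7 and 90.5. Kit was at 255 CPM in PF4-Cre and 240 in ROSA-Cre (ratio of ROSA-Cre to PF4-Cre 0.941, interval 0.913 to 0.970). The genes behind the gate were thus all present in both libraries.

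Markers of other marrow cells were also present, each set at a lower summed level than the megakaryocyte markers. The summed level of 6 neutrophil and granulocyte precursor markers was 1304 CPM in PF4-Cre and 1400 in ROSA-Cre, led by myeloperoxidase (Mpo, 726 and 725 CPM). Mpo alone lay above Kit and Gp9 in both libraries, and above Itgb3 (677 CPM) in PF4-Cre. For 4 monocyte and macrophage markers the sums were 72.3 and 119.7 CPM, for 4 basophil and mast cell markers 61.6 and 82.2, and for 5 erythroid markers 25.4 and 46.3. The B cell sum was 2.55 and 0.497 CPM. The T and NK cell markers Cd3e, Cd8a and Ncr1 summed to 0.349 CPM in PF4-Cre and were at 0 in ROSA-Cre. The endothelial sum of 153.8 and 170.7 CPM came mostly from Pecam1, which megakaryocytes also carry, while Cdh5 was at 0.0873 CPM and at 0. One pair stood apart. The eosinophil markers Prg2 and Epx summed to 23.2 CPM in PF4-Cre and 284 in ROSA-Cre, and to 5.87 and 201 in the libraries labelled knockout.

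The first question was which transcripts both libraries shared. At least 1 CPM was reached by 12045 genes in PF4-Cre and 12107 in ROSA-Cre, and 11711 genes reached it in both, 97.2% and 96.7% of each list. At 100 CPM 2209 genes were shared, 81.4% and 89.3% of each list, and at 1000 CPM 62 of 81 and of 76. Across the 12132 genes that averaged 1 CPM or more, log2 CPM in the 2 libraries correlated with Pearson's r of 0.961 and Spearman's rho of 0.969, a description across genes, which are not replicates. Of the 100 genes with the highest CPM 82 were the same in both libraries, and of the top 10, 7 were.

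The 7 shared top genes were 3 noncoding RNAs and 4 protein-coding genes. Rn7sk, the 7SK RNA that holds back elongating RNA polymerase, had 12120 CPM in PF4-Cre and 9661 in ROSA-Cre, and Rpph1, the RNA of ribonuclease P, had 4930 and 12434. Malat1, a nuclear long noncoding RNA, stood at 8288 and 6086 CPM. The translation factors Eef1a1 and Eef2 had 9164 and 7742 CPM and 3226 and 3791 CPM. Beta-actin (Actb) was at 4832 and 5760 CPM, and Itga2b completed the set. Below them came the ribosomal proteins, of which 74 were counted, with a summed 67181 and 68273 CPM. Among the 25 genes with the highest mean CPM, the widest gaps were those of Gm42418 and Gm26917, both higher in ROSA-Cre.

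**Figure D1:**
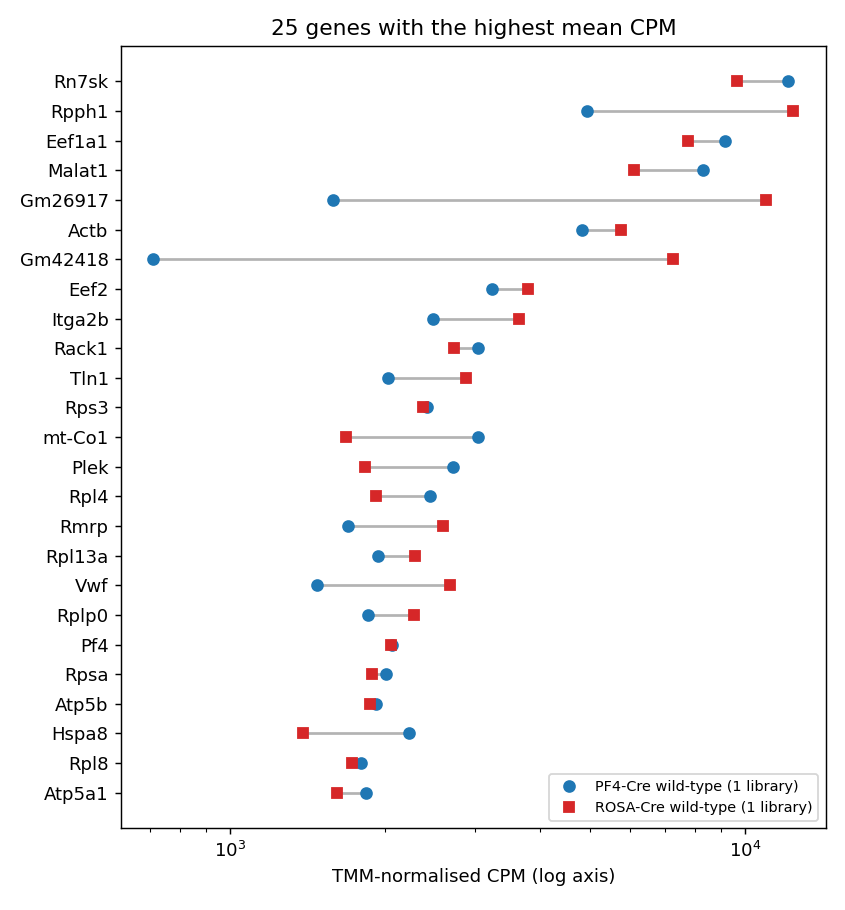
TMM-normalised CPM (log axis) of the 25 genes with the highest mean over both wild-type libraries; each row is a gene, the circle is the PF4-Cre library and the square the ROSA-Cre library, with no error bars since each group is 1 library. Pf4 coincides at 2069 and 2054 CPM, while Gm42418 lies at 711 in PF4-Cre and 7271 in ROSA-Cre.

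Levels per kilobase of exon put the genes on a common scale. Rn7sk had 36617 CPM per kilobase in PF4-Cre and 29188 in ROSA-Cre, Rpph1 15453 and 38978, and Rmrp, the RNA of the related ribonuclease MRP, 6267 and 9595. Pf4 ranked 5 in PF4-Cre and 8 in ROSA-Cre with 2869 and 2849 CPM per kilobase. On this scale it stood above Actb (1804 and 2150), Itga2b (456 and 667), Itgb3 (115 and 141) and Vwf (91.9 and 167). Ranked per kilobase, 87 of the top 100 genes were shared. The 10 genes with the most counts held 5.19% of gene counts in PF4-Cre and 7.03% in ROSA-Cre, and the top 1000 held 48.9% and 49.9%.

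Platelet genes were set against all genes counted. Of all 12132 genes counted, 981 (8.09%) were 2-fold apart. Among them 430 (3.54%) were at least 2-fold higher and 551 (4.54%) at least 2-fold lower in ROSA-Cre, with a median log2 ratio of -0.03 (log2 ratios use CPM plus 0.1). The 10 genes of the megakaryocyte and gate list had a median of 0.54, with 7 above 0 and none 2-fold apart, and a median of 0.11 after a correction for GC content, described below. In the knockout pair their median was -0.08. Among 18 platelet adhesion receptor genes, none was 2-fold higher and 1 was lower, Cd36, the scavenger receptor, with 83 and 14 counts (log2 ratio -1.19, and -0.38 after GC correction). The median of the 18 was 0.30, and 0.18 after GC correction. Gp1bb, a subunit of the von Willebrand factor receptor, stood at 67.2 and 126 CPM, Gp1ba at 7.99 and 13.1, and Gp6, the collagen receptor, at 1.64 and 2.98. After GC correction the 3 log2 ratios were 0.22, 0.56 and 1.21.

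Among 20 alpha granule genes 2 were at least 2-fold higher and 1 lower, where 3.54% and 4.54% of all genes counted were, with a median of 0.08. After GC correction none was 2-fold higher, and the 2 genes had log2 ratios of 0.78 (Nbeal2) and 0.95 (Tgfb1). Nbeal2, needed to form alpha granules, had 82.4 CPM in PF4-Cre and 209 in ROSA-Cre, and 140 and 356 CPM in the knockout pair. Its wild-type ratio of ROSA-Cre to PF4-Cre was 2.54 (interval 2.44 to 2.64). Tgfb1, the growth factor stored in them, had 66.1 and 145 CPM. Vwf, the cargo gene with the highest mean CPM over both libraries (2076, against 2061 for Pf4), had 1476 and 2676 CPM, and 1525 and 1591 in the knockout pair. Cxcl5, a chemokine gene beside Pf4, was the lower one, with 6.72 and 1.90 CPM. Of 16 dense granule genes only Slc18a2, the monoamine transporter that fills them, was 2-fold lower, at 143 and 66.2 CPM.

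Signalling and transcription factor lists had counts near the 8.09% of all genes that were 2-fold apart. Of 22 genes of platelet signalling through immunoreceptor motifs none was 2-fold apart, and talin (Tln1), which activates the fibrinogen receptor, had 2033 and 2881 CPM. Of 9 platelet G-protein receptors counted, Tbxa2r, the thromboxane receptor, was 2-fold higher (37.1 and 83.4 CPM), with a log2 ratio of 0.46 after GC correction. Of 22 megakaryocyte transcription factor genes 2 were higher and none lower, at a median of 0.00. They were Zfpm1, the partner of GATA factors also called FOG1, with 297 and 610 CPM, and the corepressor gene Cbfa2t3, with 25.9 and 53.4. After GC correction their log2 ratios were 0.09 and 0.69, within 2-fold. Gfi1, the paralogue of Gfi1b, was at 8.22 and 8.20 CPM. Actn1, an actin crosslinker of the proplatelet cytoskeleton, was the 1 of 21 in its list past 2-fold, at 32.7 and 81.4 CPM.

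**Figure D2:**
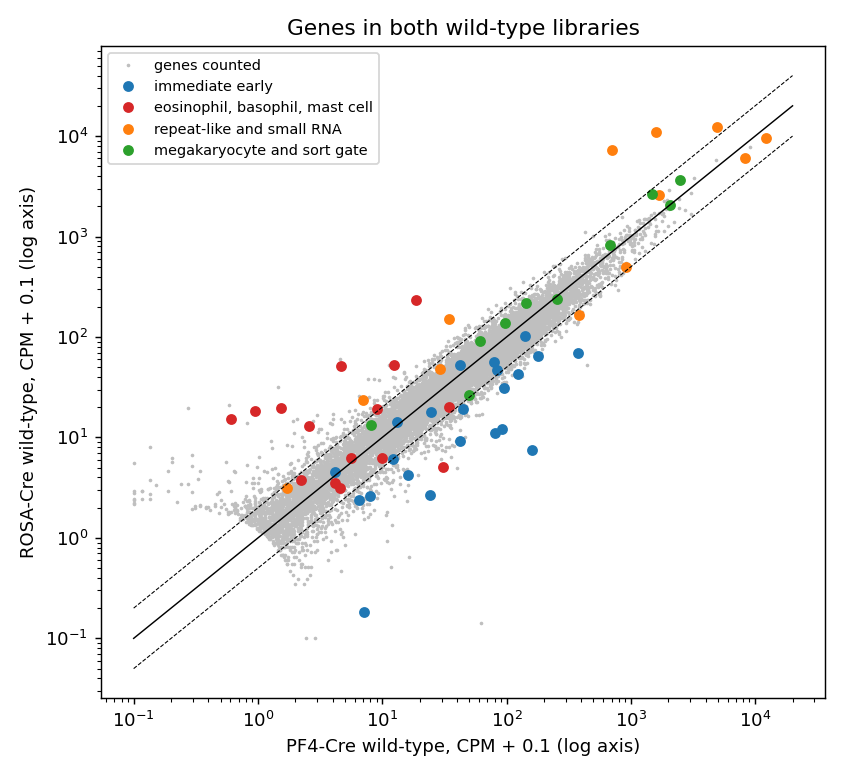
CPM plus 0.1 of each of the 12132 genes counted (grey points) in the PF4-Cre wild-type library (x, log axis) and the ROSA-Cre wild-type library (y, log axis), with 4 gene lists coloured; the solid line is equality and the dashed lines are 2-fold. Megakaryocyte genes lie between the dashed lines, immediate early genes lie mostly below and 8 eosinophil, basophil and mast cell genes lie above.

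The second question was where the 2 libraries differed and whether the differences came back. The spread between mice is not known for any of the 981 genes past 2-fold. Past 4-fold were 85 genes higher and 61 lower. In the knockout pair, which shares no library with the wild-type pair, 211 of the 430 higher genes (49.1%) were again at least 2-fold higher and 12 were 2-fold lower. Of the 551 lower genes 217 (39.4%) were again lower and 9 were higher. Among all genes counted, the knockout pair had 4.47% higher and 5.07% lower. Seen from the knockout pair, the recurring genes were 38.9% of its higher and 35.3% of its lower list.

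A model of Cre model and genotype over all 4 libraries gave the single test the design allows. In it each genotype acts as the replicate of the other, and 1 residual degree of freedom per gene is moderated across genes. Of 14514 genes tested, 934 (6.44%) were higher and 1491 (10.3%) lower in ROSA-Cre (edgeR quasi-likelihood, Benjamini-Hochberg adjusted p under 0.05). Without the genotype term, or without any one of the 4 libraries, no gene passed. At an unadjusted p under 0.05 the fit had 547 genes without PF4-Cre wild-type, 569 without PF4-Cre knockout, 2100 without ROSA-Cre wild-type and 1861 without ROSA-Cre knockout, where 4968 stood with all 4.

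The ratio followed the GC content of the transcript in both pairs. In the 10% of genes with the lowest GC, from 31.0% to 41.4%, the median log2 ratio of the wild-type pair was -0.73, and 317 genes were 2-fold lower against 4 higher. In the 10% with the highest GC it was 0.45, with 154 higher and 7 lower. The knockout pair ran from -0.57 to 0.39. Across 12061 genes with a GC value the ratio correlated with GC at r = 0.581 and rho = 0.690, and with log2 exonic length at r = -0.090. A smooth curve of GC was therefore taken off the ratios as an alternative chosen after the data were seen. It left 248 genes (2.06%) higher and 255 (2.11%) lower, and 203 and 197 of these had been past 2-fold before. Taken into the 4-library test, it left 224 genes (1.54%) higher and 124 (0.854%) lower, so that 64.4% of the calls were higher in place of 38.5%. The source of the trend was not tested.

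**Figure D3:**
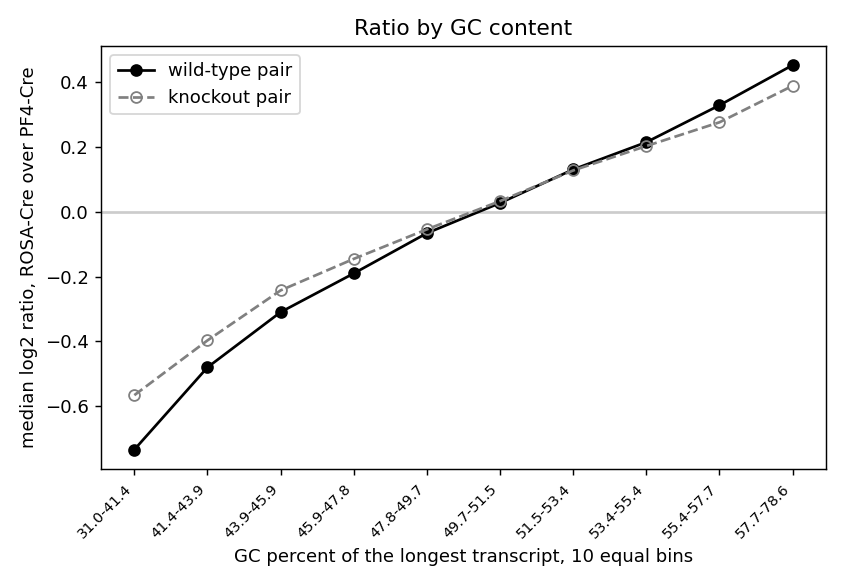
Median log2 ratio of ROSA-Cre to PF4-Cre (y) in 10 bins of equal gene number by GC percent of the transcript (x), for the wild-type pair (filled circles) and the knockout pair (open circles), with no error bars since each pair is 1 ratio per gene. Both lines rise from left to right, from -0.73 to 0.45 and from -0.57 to 0.39.

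Immediate early genes had the lowest median of the 40 gene lists, lower in ROSA-Cre. The lists were chosen with earlier results of these data known, so this rank is a description only. These genes are switched on quickly by growth factors or stress, through transcription factors already in the cell. Of 22 counted, 14 were at least 2-fold lower and none higher, where 4.54% of all genes were lower. Their median log2 ratio was -1.50, and -1.87 after GC correction. In the knockout pair 16 were 2-fold lower, where 5.07% of all genes were, 13 of them the same genes, with a median of -1.61. In the 4-library test 18 of the 22 were lower and none higher, where 10.3% of all genes were lower, and 17 after GC correction, where 0.854% were. The summed level of the list was 1655 CPM in PF4-Cre and 579 in ROSA-Cre, and 2254 and 756 in the knockout pair.

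The 250 bases before the RefSeq start of 5 of these genes (GRCm38.p6) are shown first, because 14 of the 22 genes counted were 2-fold lower and the core of the cyclic AMP response element, TGACG or CGTCA on the other strand, is found in many of their promoters. RefSeq sequences were matched for 21 of the 25 genes listed, and Egr1 and Myc were not among the 21. The 5-letter core was in 12 of the 21 and in 8 of the 12 matched genes that were 2-fold lower. It was in 17.8% of all 32851 promoters of that length. The CArG box, the element bound by serum response factor, was in 1 of 21 and in 1.47% of all, and TGANTCA, the AP-1 element, in none of the 21 and in 6.75% of all. Only the 250 bases were searched, so elements further upstream were not counted, and these shares do not describe whole promoters. Capitals mark the TGACG core on either strand in the first 4 and the CArG box in Zfp36. The windows are Fos (chr12:85473640-85473889, plus strand), Fosb (chr7:19310046-19310295, minus), Nr4a1 (chr15:101266596-101266845, plus), Atf3 (chr1:191183334-191183583, minus) and Zfp36 (chr7:28379229-28379478, minus), each printed 5′ to 3′ of the gene.
Fos: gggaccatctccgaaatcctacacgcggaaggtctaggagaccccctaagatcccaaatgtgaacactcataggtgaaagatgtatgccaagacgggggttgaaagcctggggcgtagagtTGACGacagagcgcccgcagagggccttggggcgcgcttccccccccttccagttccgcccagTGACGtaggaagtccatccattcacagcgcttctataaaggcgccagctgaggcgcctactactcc
Fosb: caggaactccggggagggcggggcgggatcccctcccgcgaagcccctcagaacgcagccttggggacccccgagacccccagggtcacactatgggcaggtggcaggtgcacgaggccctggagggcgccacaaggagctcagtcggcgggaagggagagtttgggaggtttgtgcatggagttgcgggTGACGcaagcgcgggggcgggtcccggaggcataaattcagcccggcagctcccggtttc
Nr4a1: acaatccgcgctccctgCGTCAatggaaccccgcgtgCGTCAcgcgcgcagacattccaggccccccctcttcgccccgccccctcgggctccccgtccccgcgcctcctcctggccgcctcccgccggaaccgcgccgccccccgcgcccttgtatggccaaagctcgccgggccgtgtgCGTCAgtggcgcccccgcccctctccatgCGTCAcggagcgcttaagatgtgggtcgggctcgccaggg
Atf3: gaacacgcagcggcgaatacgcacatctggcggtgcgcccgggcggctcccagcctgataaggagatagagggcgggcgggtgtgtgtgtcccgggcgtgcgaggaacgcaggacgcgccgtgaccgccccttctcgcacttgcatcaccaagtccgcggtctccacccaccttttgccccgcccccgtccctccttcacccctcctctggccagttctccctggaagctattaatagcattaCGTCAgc
Zfp36: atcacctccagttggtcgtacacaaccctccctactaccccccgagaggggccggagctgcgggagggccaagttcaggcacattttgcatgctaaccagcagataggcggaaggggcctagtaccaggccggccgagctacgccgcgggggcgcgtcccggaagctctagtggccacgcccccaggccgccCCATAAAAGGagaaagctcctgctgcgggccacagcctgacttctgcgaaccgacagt
A match of letters is a description of the window and not a site in use. In Fos the core began 129 and 66 bases before the start, in Fosb 60, in Nr4a1 233, 213, 69 and 40, and in Atf3 7 bases before it.

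Fos, a subunit of the AP-1 transcription factor (chromosome 12 from 85473890 to 85477273, plus strand of GRCm38), had 9191 counts or 160 CPM in PF4-Cre wild-type and 179 counts or 7.41 CPM in ROSA-Cre wild-type. The knockout pair had 253 and 7.81 CPM. Fos, named for its large wild-type ratio, was 2-fold lower in ROSA-Cre in both pairs, as were 217 of all 12132 genes counted. In the wild-type pair PF4-Cre held 21.6 times the CPM of ROSA-Cre (interval 18.7 to 25.2). In the 4-library model Fos fell by 4.73 log2 units with an SE of 0.19 (Benjamini-Hochberg adjusted p = 0.000403, edgeR quasi-likelihood).

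Fosb, its close relative, had 91.0 and 12.1 CPM in the wild-type pair and 133 and 18.6 in the knockout pair. Jun, the AP-1 partner of both and the most abundant gene of the list, had 378 and 69.5 CPM, then 495 and 80.8. Atf3, a stress-induced factor of the same class, had 406 counts in PF4-Cre wild-type and 2 in ROSA-Cre wild-type. Its ratio of PF4-Cre to ROSA-Cre was 85.6, with a wide interval of 23.5 to 709. Egr1, a zinc finger factor, had 23.9 and 2.57 CPM, then 14.4 and 4.06. Each of these 4 genes was 2-fold lower in ROSA-Cre in both pairs, as were 217 of all 12132 genes counted. Fosb, Atf3 and Egr1 were named for their large wild-type ratios.

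Other genes of the list were also lower in ROSA-Cre in both pairs. Dusp1, a phosphatase of MAP kinases, had 80.0 CPM in PF4-Cre and 11.1 in ROSA-Cre, and 90.0 and 18.4 in the knockout pair. Zfp36, which speeds the decay of mRNAs with AU-rich elements, had 42.0 and 9.11 CPM, then 75.7 and 21.3. The nuclear receptor gene Nr4a1 had 15.9 and 4.10 CPM, then 34.5 and 6.80. These 3 genes too were among the 217 of all 12132 genes counted that were 2-fold lower in both pairs. Dusp1 was named for its ratio, and Zfp36 and Nr4a1 after their values were seen. Rgs1, a regulator of G-protein signalling, is not in the list and was among the 15 lowest ratios with 442 and 52.6 CPM, then 457 and 35.5. The exceptions in the wild-type pair were Myc (41.8 and 52.2 CPM), Klf4 (4.07 and 4.39) and Fosl2 (12.9 and 14.2), whose ratios lay above 1 but within 2-fold.

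**Figure D4:**
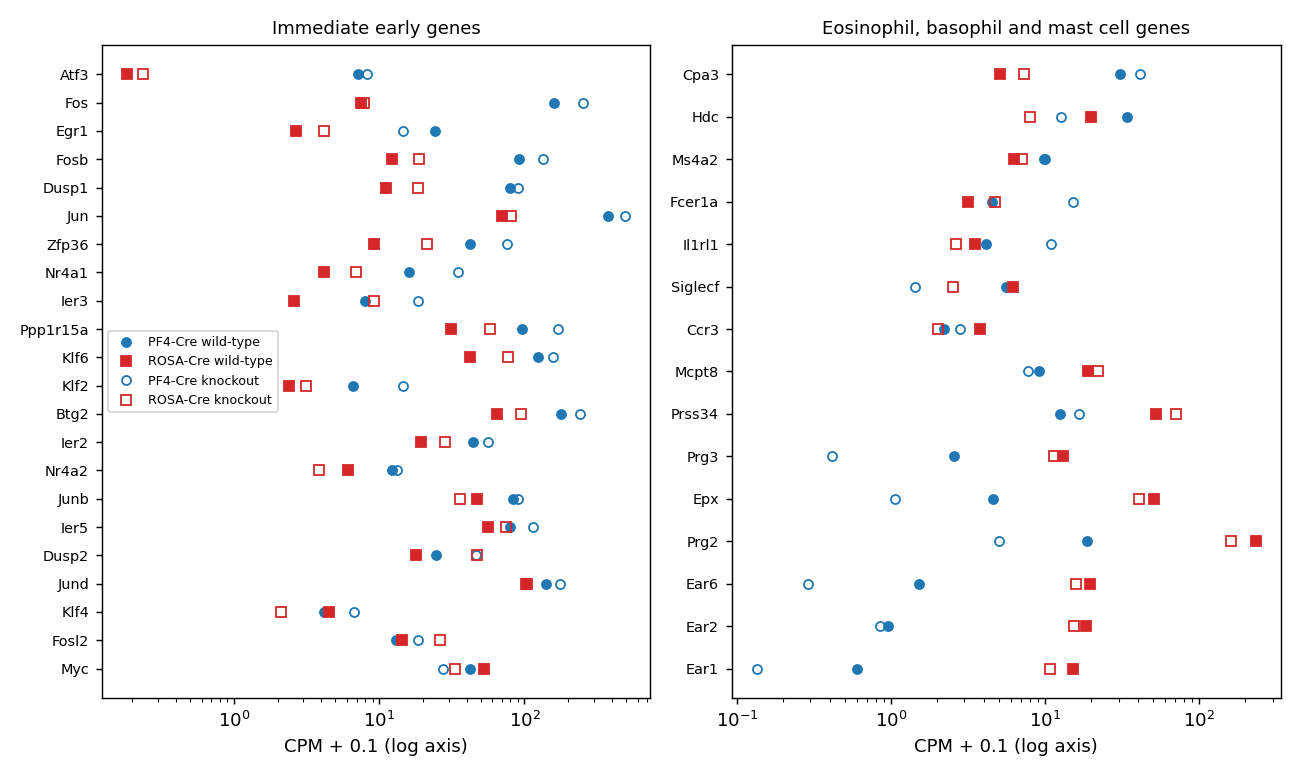
CPM plus 0.1 (log axis) of the 22 immediate early genes (left) and the 15 eosinophil, basophil and mast cell genes (right) counted, 1 row a gene; filled symbols are wild-type and open symbols knockout libraries, circles PF4-Cre and squares ROSA-Cre, with no error bars since each symbol is 1 library. On the left most squares lie to the left of the circles, by the widest margin in Atf3 (7.09 and 0.0828 CPM in wild-type); on the right the 6 lowest rows, from Prg3 to Ear1, have squares far to the right of circles in both genotypes.

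Stress and cytokine lists were read against the 4.54% of all genes that were 2-fold lower. Of 16 heat shock chaperone genes 1 was 2-fold lower, Chordc1, a partner of HSP90, with 139 and 55.3 CPM (GC corrected log2 ratio -0.25). Hspa8, the constitutive HSP70 and the most abundant of them, had 2229 and 1389 CPM. The list's median was -0.40, and -0.22 after GC correction. In the 4-library test 6 of 16 were lower, where 10.3% of all genes were, and 1 after GC correction, where 0.854% were. Of 14 NF-kB response and cytokine genes 3 were lower, Ccl3 (98 and 9 counts), Tnf (302 and 47) and Nfkbiz (681 and 140), at a median of -0.25. By CPM these were 1.71 and 0.373, 5.27 and 1.95, and 11.9 and 5.80. The knockout pair had 2 of the 14 lower, where 5.07% of all genes were, at a median of 0.02, and 1 gene was lower in both pairs. The 4-library test had 2 lower, where 10.3% of all genes were, and 0 after GC correction, where 0.854% were. Of 30 interferon response genes 3 were lower, at a median of -0.25. They were Ifi44 (5.15 and 1.41 CPM), Ifit1 (3.63 and 1.57) and Rtp4 (3.18 and 1.49), of which Ifit1 was within 2-fold after GC correction (log2 ratio -0.79). Socs3, the feedback inhibitor of cytokine receptors, was the 1 of 20 thrombopoietin, Kit and JAK-STAT genes past 2-fold, with 388 and 50 counts.

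Eosinophil, basophil and mast cell genes had the highest median of the 40 lists, higher in ROSA-Cre. This rank too is a description only, among lists chosen with earlier results known. Eosinophils are granulocytes whose granules carry toxic cationic proteins. Of 15 eosinophil, basophil and mast cell genes counted, 8 were at least 2-fold higher, where 3.54% of all genes were, and 1 was lower. The median log2 ratio was 1.06, and 1.52 after GC correction and 1.51 in the knockout pair. The same 8 genes were higher in the knockout pair and 3 were lower, where 4.47% and 5.07% of all genes were. In the 4-library test 8 were higher and 2 lower, where 6.44% and 10.3% of all genes were. After GC correction 8 were higher and 1 lower, where 1.54% and 0.854% were.

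Prg2, the major basic protein of eosinophil granules (chromosome 2 from 84980461 to 84983632, plus strand), had 1069 counts or 18.7 CPM in PF4-Cre wild-type and 5614 counts or 232 CPM in ROSA-Cre wild-type. The knockout libraries had 4.90 and 160 CPM. Prg2, named for its large wild-type ratio, was 2-fold higher in ROSA-Cre in both pairs, as were 211 of all 12132 genes counted. The wild-type ratio of ROSA-Cre to PF4-Cre was 12.5 (interval 11.7 to 13.3). In the 4-library model Prg2 rose by 4.30 log2 units with an SE of 0.33 (Benjamini-Hochberg adjusted p = 0.0041, edgeR quasi-likelihood). Epx, the eosinophil peroxidase, had 4.52 and 51.1 CPM, then 0.969 and 40.4. The ribonuclease genes Ear1, Ear2 and Ear6 had 29, 49 and 82 counts in PF4-Cre wild-type and 363, 445 and 474 in ROSA-Cre wild-type. They are near copies of one another, so counting may have split or dropped their reads. Alox15, the lipoxygenase abundant in eosinophils, was not in the list and had 28 and 510 counts.

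Other genes of the list differed in either direction. The basophil proteases Prss34 and Mcpt8 were higher, with 12.3 and 52.2 CPM and 9.01 and 18.9 CPM. Cpa3, the carboxypeptidase of mast cells and their progenitors, was lower, with 30.5 and 5.01 CPM, then 41.3 and 7.21 in the knockout pair. Hdc, which makes histamine, had 34.0 and 19.8 CPM. Ccr3 and Siglecf, surface proteins of eosinophils, had 121 and 89 counts and 314 and 148 counts, and were within 2-fold by CPM. The share of eosinophil lineage cells in each sort and the RNA per such cell cannot be told apart in bulk libraries, and the part of carried-over cells in these ratios was not tested.

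Erythroid genes differed in both directions. Of 22 counted, 14 had a log2 ratio above 0 and 8 below, and 8 were 2-fold higher and 1 lower, where 3.54% and 4.54% of all genes were. The median was 0.32, and the summed level was 1374 CPM in PF4-Cre and 1189 in ROSA-Cre. The knockout pair had none of them 2-fold higher and 11 lower, at a median of -1.01, where 4.47% and 5.07% of all genes were. In the 4-library test none was higher and 2 were lower, where 6.44% and 10.3% of all genes were. Slc4a1, the red cell anion exchanger, had 1.61 CPM in PF4-Cre wild-type and 8.24 in ROSA-Cre wild-type, then 276 and 22 counts in the knockout pair. Trim10 and Add2, of red cell maturation and membrane skeleton, had 26 and 44 and 106 and 118 counts in the wild-type pair. Car2, carbonic anhydrase 2, the most abundant of the list, had 413 and 262 CPM. All 4 adult globin genes were higher. Hbb-bs had 7.61 and 38.4 CPM, then 142 and 226, and Hba-a2 0.541 and 4.51, then 9.75 and 26.3. Their near-identical copies make each single value uncertain. The 2 globin alpha genes were again 2-fold higher in the knockout pair, and no other of the 14 globin and heme genes was.

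Neutrophil genes were described in an early and a late list. Of 15 early granule genes none was 2-fold apart in the wild-type pair, at a median of 0.17, and 1 was higher and 1 lower in the knockout pair, at a median of -0.15. With 8.09% of all genes 2-fold apart in the wild-type pair, a count of 0 in 15 is near that share. Of 18 late granule genes 2 were lower in the wild-type pair, Fpr2 (136 and 16 counts) and Fpr1 (133 and 26), both receptors for formyl peptides. In the knockout pair 14 of the 18 were lower, where 5.07% of all genes were, and the list's median was -1.52 against 0.07 in wild-type. S100a9, the calprotectin subunit most abundant in the list, had 274 and 247 CPM in wild-type and 337 and 71.1 in the knockout pair. None of 16 monocyte and macrophage genes was 2-fold apart in the wild-type pair. In the knockout pair 5 were lower, where 5.07% of all genes were, at a median of -0.61. Of 6 stromal genes counted 2 were lower, where 4.54% of all genes were, Cxcl12 (336 and 51 counts) and Pdgfrb (304 and 50), the chemokine and the growth factor receptor of marrow stroma. These falls did not come back. The knockout pair had log2 ratios of 1.05 for Cxcl12 and 0.64 for Pdgfrb. Of the 6 genes 2 were higher and 1 lower there, where 4.47% and 5.07% of all genes were. In the 4-library test 1 was higher and 0 lower, where 6.44% and 10.3% of all genes were.

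Repeat-like and structured RNA genes had a higher summed level in ROSA-Cre in both pairs. Of 12 such genes 5 were 2-fold higher and 1 lower in ROSA-Cre, where 3.54% and 4.54% of all genes were. The median was 0.81, and 0.08 after GC correction, when 4 were higher and 1 lower. Their summed level was 30704 CPM in PF4-Cre and 49950 in ROSA-Cre, and 35179 and 54758 in the knockout pair. Gm42418 (chromosome 17 from 39846958 to 39848788), which overlaps ribosomal RNA-like repeats, had 40730 and 175603 counts, or 711 and 7271 CPM. Its neighbour Gm26917 had 1589 and 11004 CPM, then 1177 and 3064. Lars2, a mitochondrial leucine tRNA ligase gene with a ribosomal RNA-like stretch in its exons, had 34.2 and 150 CPM, then 66.1 and 368. Rpph1 was 2.52 times higher, with a log2 ratio of 0.37 after GC correction, and 2.47 log2 units separated the knockout libraries for Gm42418. These genes, the mitochondrial and globin genes and all genes annotated as small or structured RNA were also left out together. The small nucleolar RNA genes were among them, and the scaling was redone. Then 408 genes were higher and 537 lower, close to the counts with them.

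Small noncoding RNA genes differed in both directions. Of 46 small nucleolar RNA genes, a family grouped after the values were seen, 18 were 2-fold higher and 5 lower, where 3.54% and 4.54% of all genes counted were, at a median of 0.72, and 0.76 after GC correction and in the knockout pair. Rprl3, a gene for a ribonuclease P RNA-like transcript (chromosome 8 from 3803069 to 3803358, minus strand), had the largest fall. It had 3536 counts in PF4-Cre wild-type and 1 in ROSA-Cre wild-type, then 1914 and 1, and copies of the same RNA elsewhere make this count uncertain. Gm23262, a small nucleolar RNA gene within Eif4g2, had 943 and 13 counts. Among the rises, Mir6236, annotated as a microRNA, had 78 and 762 counts, then 136 and 1234. The antisense gene 4930558J22Rik, which overlaps Hist1h4b, had 10 and 477 counts, and Gm20628, which overlaps Hist2h3b, had 255 and 1457. Whether the counting used strand is not given in the sources used here, so reads of such a gene and its partner cannot be told apart.

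Histone genes had 2-fold counts near the shares of all genes. Of 37 counted, 31 had a log2 ratio above 0, 2 were 2-fold higher and none lower, where 3.54% and 4.54% of all genes were, at a median of 0.25. After GC correction none was 2-fold apart and the median was 0.11. All genes counted had a median of -0.03, and -0.07 after GC correction, and their share above 0 was not counted. Hist1h4k had 117 and 283 CPM and Hist2h3b 74.1 and 159, while Hist3h2a, outside the list, was among the largest falls with 39.7 and 4.84 CPM, then 43.0 and 9.86. Cell cycle genes had counts near the 4.54% of all genes that were lower. Of 32 S phase genes 1 was lower, Ccne2, cyclin E2 (98.2 and 35.5 CPM), and of 32 mitosis genes 1 was lower, Bub1, a spindle checkpoint kinase (156 and 72.2). After GC correction neither was 2-fold lower (log2 ratios -0.45 and -0.55). The medians were -0.15 and -0.28, and -0.095 and -0.158 after GC correction. In the 4-library test 6 and 12 of these genes were lower, where 10.3% of all genes were, and none after GC correction, where 0.854% were.

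GC correction moved zinc finger genes and mitochondrial transcripts. Of 324 protein-coding genes whose symbol starts with Zfp and a digit, grouped after the values were seen, 89 were 2-fold lower and 7 higher, where 4.54% of all genes counted were lower and 3.54% higher. Their median log2 ratio was -0.51 and their median GC 44.1%. After correction 27 were lower and 2 higher, where 2.11% and 2.06% of all genes were, at a median of -0.24. The knockout pair had 26 of these genes lower and 12 higher, where 5.07% and 4.47% of all genes were. Their median there was -0.19, and 24 of the 89 were lower in both pairs. In the 4-library test 90 were lower and 24 higher before correction, where 10.3% and 6.44% of all genes were, and 4 and 4 after it, where 0.854% and 1.54% were. By chromosome, 23 of 33 were lower on chromosome 13, 26 of 44 on chromosome 17 and 12 of 87 on chromosome 7. Zfp990 had 669 and 10 counts, then 1876 and 0, and Zfp808 902 and 54, both members of families with near-identical copies. Of 9 mitochondrially encoded genes counted 2 were lower, mt-Rnr2, the large ribosomal RNA (791 and 296 CPM), and mt-Nd2 (103 and 44.9). After GC correction their log2 ratios were -0.31 and -0.12. The family's median of -0.42 became 0.57 after GC correction, so the family lay below 0 on one scale and above 0 on the other. Nuclear genes of oxidative phosphorylation had none of 47 past 2-fold, at a median of -0.02.

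Metabolic and housekeeping lists had few genes 2-fold apart, as had all genes counted (8.09%). Of 74 ribosomal protein genes 2 were 2-fold higher, Rps29 (238 and 506 CPM) and Rps16 (220 and 448), at a median of 0.02. After GC correction their log2 ratios were 0.98 and 0.94, within 2-fold. Of 21 glycolysis genes 1 was higher, Eno1, the enolase (89.9 and 194 CPM, log2 ratio 0.68 after GC correction), and of 21 cholesterol synthesis genes none was 2-fold apart. Of 21 unfolded protein response genes Dnajb9, an ER chaperone partner, was lower (26.5 and 8.20 CPM). Of 22 stem and progenitor genes Prom1, the surface protein CD133, was higher (136 and 161 counts). None of 14 MHC class I genes passed 2-fold, and B2m, the light chain, had 903 and 469 CPM.

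The loci that name the models were looked at last. Around Pf4 on chromosome 5 (90772435 to 90773383), 6 genes were counted, Pf4 itself among them, and 2 were 2-fold lower in ROSA-Cre, where 4.54% of all genes were. They were Cxcl5 (385 and 46 counts) and Btc, a growth factor gene further along the chromosome, from 91357261 (241 and 43 counts). After GC correction Cxcl5 had a log2 ratio of -1.23 and Btc -0.32, so that 1 of 6 was lower. Ppbp, the other platelet chemokine, had 50.1 and 26.1 CPM, from 2871 and 631 counts, and 2891 and 468 counts in the knockout pair. Over both genotypes it fell by 1.08 log2 units with an SE of 0.15 (Benjamini-Hochberg adjusted p = 0.00911, edgeR quasi-likelihood), and after GC correction the adjusted p of that edgeR test was 0.0813. Around the Rosa26 locus on chromosome 6, 1 of 9 genes was 2-fold lower, before and after GC correction. It was Gt(ROSA)26Sor, the noncoding transcript of the locus itself (113067428 to 113077333, minus strand), with 915 and 79 counts in the wild-type pair and 900 and 78 in the knockout pair. Its level was 16.0 and 3.27 CPM, a ratio of PF4-Cre to ROSA-Cre of 4.88 (interval 3.88 to 6.22). The log2 ratio of ROSA-Cre to PF4-Cre was -2.25, and -1.32 after GC correction. Over both genotypes it fell by 2.21 log2 units with an SE of 0.24 (Benjamini-Hochberg adjusted p = 0.0068, edgeR quasi-likelihood). With GC correction that estimate was -1.36 log2 units (adjusted p = 0.0367, edgeR quasi-likelihood). The transcript overlaps Thumpd3, a tRNA methyltransferase gene on the other strand, which had 103 and 54.1 CPM.

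**Figure D5:**
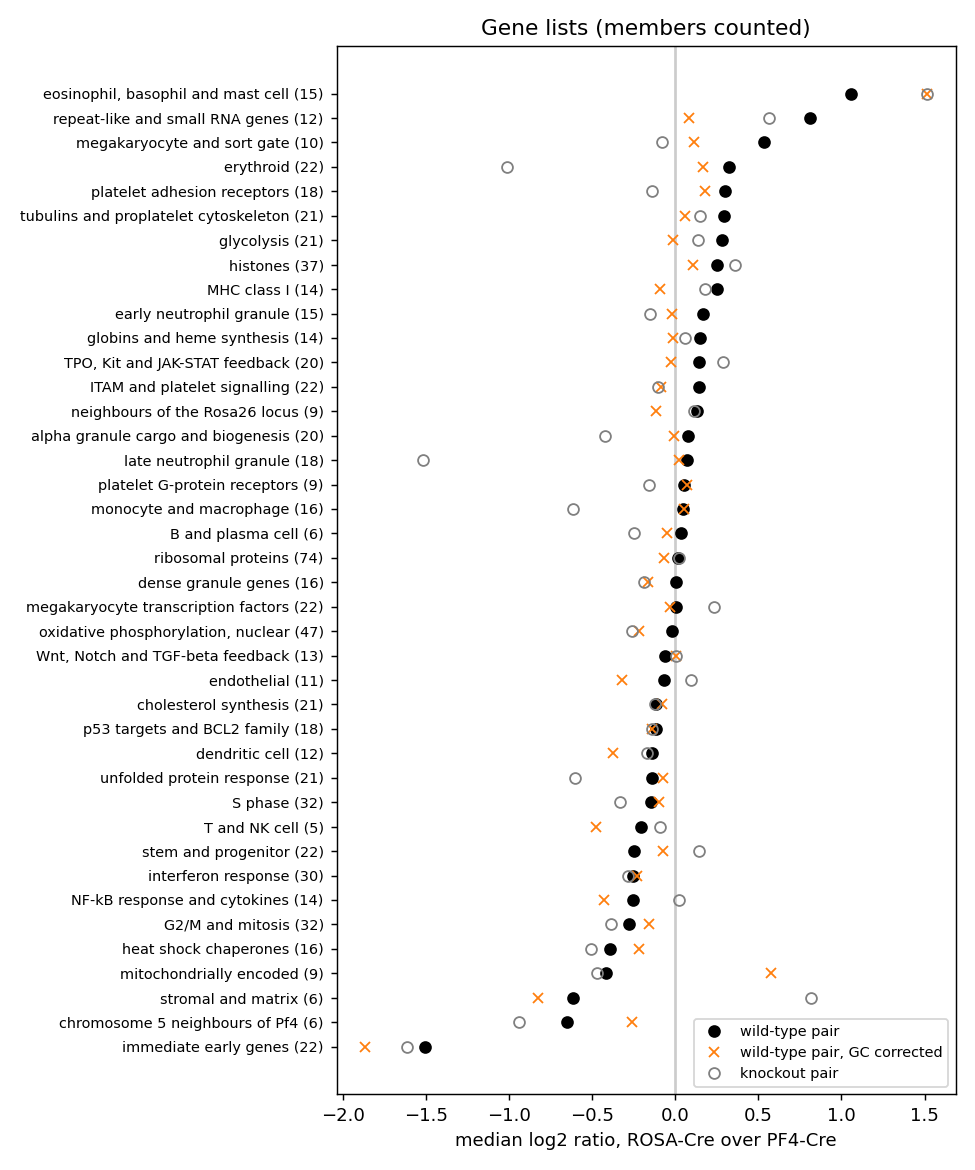
Median log2 ratio of ROSA-Cre to PF4-Cre (x) of each of the 40 gene lists (rows, with the number of members counted), for the wild-type pair (filled circles), the same pair after GC correction (crosses) and the knockout pair (open circles); a median is a description and has no error bar. Immediate early genes lie lowest at -1.50, -1.87 and -1.61, and eosinophil, basophil and mast cell genes highest in the wild-type pair at 1.06, 1.52 and 1.51, while late neutrophil and erythroid genes have open circles far left of the filled ones.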

How the data were processed

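RNA of sorted mouse megakaryocytes was sequenced as 4 libraries, 1 a group, with groups taken from the titles. Per the labels' protocols, libraries were made with a stranded mRNA kit for paired-end reads. Among the tools in the submitters' processing notes are HTSeq, DESeq, SAMtools and TopHat2 2.0.10, and the builds are mm10 and GRCm38. The authors deposited raw HTSeq counts per Ensembl gene, 1 table a library, with no normalisation. Neither the annotation release nor the strand setting is stated there. Per library, reads with no gene were 32.1% to 36.2% and ambiguous reads 0.448% to 0.532% of the counted lines; the 5 category lines were left out.

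Of 41214 identifiers, 3931 on X and Y were dropped (3.55% of gene counts in PF4-Cre wild-type and 2.88% in ROSA-Cre wild-type), which takes Gata1 out, and 37283 were kept, 874 of them without coordinates in GENCODE release M21. Counts were scaled with edgeR 4.0.16 (TMM, R 4.3.3). Genes averaging 1 CPM or more over the wild-type libraries were counted, ratios used a pseudocount of 0.1 CPM, and the limit was 2-fold. The pseudocount understates ratios of low genes. Levels per kilobase used summed exon length. The 4-library test was edgeR's quasi-likelihood test with Cre model and genotype, with a biological coefficient of variation (common) of 16.2% and 5.82 prior degrees of freedom. Its script was tested on simulated data. DESeq2 1.42.0 was an alternative. The GC correction took off a spline with 4 degrees of freedom.

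The members and the 40 gene lists were chosen with earlier results of these data known. Named were Pf4, Itga2b, Gp9, Kit, Itgb3, Gfi1b and Gfi1, the 25 top genes by CPM and by CPM per kilobase, 15 each way by ratio (mean of at least 5 CPM), 10 each way past 2-fold in both pairs and past the test, and per list up to 4 members with the largest log2 ratio and the most abundant one. Nr4a1, Zfp36, Myc, Klf4, Fosl2, Ccr3, Siglecf, Prss34, Mcpt8, Prg3, Hdc, Pecam1, Cdh5, Cd3e, Cd8a, Ncr1, Eif4g2, Hist1h4b and Adgrl4 were named after their values were seen.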

Additional observations from a re-analysis of the deposited data

Results flagged for a closer look

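Among the named genes, 4 were 2-fold apart in opposite directions in the wild-type and knockout pairs, with 1 library behind each value, so the difference between the pairs was not tested. Slc4a1, the red cell anion exchanger, had a log2 ratio of ROSA-Cre to PF4-Cre of 2.29 in the wild-type pair and -2.14 in the knockout pair. Epb42, a protein of the red cell membrane skeleton, had 1.42 and -1.89, on 39 and 48 counts in the wild-type pair. Trim10, a gene of red cell maturation, had 1.8 and -1.20, on 26 and 44 counts. Cxcl12, the stromal chemokine, had -1.43 and 1.05. Of all genes counted 21 were apart in this way, 12 higher in the wild-type pair and 9 lower, and 4 of them had a mean of at least 5 CPM.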

How the results depend on the processing

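No paired analysis was possible because the labels carry no replicate numbers and each group is 1 library. The count of 981 genes past 2-fold became 3126 at 1.5-fold, 146 at 4-fold, 586 with a mean of at least 5 CPM, 2344 with no filter on low counts and 503 after GC correction. The 428 recurring genes became 1718, 68, 261 and 214 at 1.5-fold, at 4-fold, at 5 CPM and after GC correction. The 2425 calls of the 4-library test became 348 after GC correction, 0 with the Cre model as the only term (1976 at an unadjusted p under 0.05) and 0 in all 4 fits that left out 1 library, where the genotype term was dropped and the lone library was assumed to vary like the others. DESeq2's Wald test called 2514 of 12263 genes. Among named genes with a GC value, GC correction moved 173 ratios beyond their counting interval and left 64 within it. No named gene past 2-fold changed sign under these settings, while the median of the mitochondrially encoded genes went from -0.42 to 0.57 after GC correction. Depth limits genes under 0.124 CPM in ROSA-Cre. With 1 library a group, the spread between mice was not measured.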

Other observations

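Processed pseudogenes, a class grouped after the values were seen, were lower in ROSA-Cre more often than the 4.54% of all genes counted. Of 350 counted, 75 (21.4%) were 2-fold lower and 24 (6.86%) higher, where 3.54% of all genes were higher, at a median log2 ratio of -0.32. With GC correction 79 were lower and 18 higher, where 2.11% and 2.06% of all genes were, at a median of -0.37. Their median in the knockout pair was -0.38. Reads of a pseudogene and its parent are near-identical, so these values depend on how the authors' aligner placed them. Of 168 antisense genes 26 (15.5%) were 2-fold higher and 8 (4.76%) lower, where 3.54% and 4.54% of all genes were, at a median of 0.20. LincRNA genes, 154 counted, had 14 (9.09%) higher and 10 (6.49%) lower. In the wild-type pair, Adgrl4, an adhesion receptor of vessels, had 7601 and 1530 counts and in the knockout pair 3517 and 3430, so the log2 ratio was -1.07 and then 1.36; with its mean of 98.0 CPM it was the most abundant gene that was 2-fold apart in opposite directions. It was chosen after its values were seen.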
